A study of Drosophila melanogaster with 3 samples.

Results

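The genes described here are raskol and 8 genes of Ras signalling in Drosophila melanogaster (Ras85D, Egfr, Nf1, RasGAP1, drk, Sos, rl and Dsor1), 9 of 13945 annotated protein-coding genes. The list starts from raskol, which was chosen by the signal of its peak, the one ranked 2 of 8091, and the other 8 genes were listed for their place in the pathway. All 9 symbols were found in the annotation. The measurement was chromatin immunoprecipitation followed by sequencing (ChIP-seq) for the zinc finger protein CG6808, also named Zaf1, in 3 biological replicates of 1 group. The material was whole prepupae of pooled sex from 1 transgenic line that stably carries CG6808 with GFP at its C-terminal end, and the descriptions name an antibody to GFP. The labels also give an age of 24 days and name CG6808 in the antibody field, and the promoter that drives the transgene was not given in the sources used here. With 1 group and no untagged sample analysed here, the values describe where the tagged protein was found. They were not tested against another condition, and a whole-animal sample does not show in which cells the protein was bound. A summit is the highest point of a peak, and 29 of the 8091 summits that the authors kept after filtering for reproducibility between replicates (the IDR list, on the dm6 build) lay within 500 bp of a transcription start site (TSS) of these genes or inside them.

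Ras proteins are small GTPases that pass a signal from receptors at the cell surface to a cascade of kinases. Receptor tyrosine kinases such as Egfr recruit the adaptor drk and the exchange factor Sos, which loads Ras85D with GTP. GTPase-activating proteins such as raskol, RasGAP1 and Nf1 return Ras to its inactive form, and the kinases Dsor1 (the fly MEK) and rl (the fly ERK) carry the signal onward. In flies this pathway directs growth, survival and the fates of cells in imaginal discs, the tissues that form the adult during metamorphosis.

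The sequence under the raskol peak is shown first because it holds a stretch that was also found at other strong peaks. The summit lay at 208 bp upstream of the last annotated start of raskol. The 300 bases around it (dm6, chrX:17738056-17738355, plus strand) are printed with 2 neighbouring 13-base copies in capitals.
raskol peak: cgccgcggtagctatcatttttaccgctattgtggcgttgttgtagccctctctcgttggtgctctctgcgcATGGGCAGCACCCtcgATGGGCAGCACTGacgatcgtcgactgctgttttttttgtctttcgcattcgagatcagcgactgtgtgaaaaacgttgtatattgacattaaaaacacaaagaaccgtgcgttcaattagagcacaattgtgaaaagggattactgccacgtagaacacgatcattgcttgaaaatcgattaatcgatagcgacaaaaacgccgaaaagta
The second copy, at -61 bp from the summit (chrX:17738144-17738156), was taken as the reference. The first copy, at -77 bp (chrX:17738128-17738140), differs from it by T12C and G13C, counted from 1 at the 5′ end. No further copy with up to 2 differences lay in the peak's 1035 bp. The closest stretches at 3 other strong peaks are shown to compare them with raskol, with differing bases in lower case. They lay nearest to MEP-1 (rank 3, chr3L:2631465-2631477, minus strand), c12.2 (rank 4, chrX:9319341-9319353, plus strand) and Atox1 (rank 5, chr3L:21640871-21640883, plus strand).
raskol: ATGGGCAGCACTG
MEP-1: ATGGGCAGCACTG
c12.2: ATGGGCAGCAtTG
Atox1: cTGGGCAGCACTG

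The 13-base stretch was common at the strongest summits and rare at the rest. It was picked after the raskol sequence had been seen and was sought on either strand, with up to 2 differences, in the 201 bp centred on each summit. With raskol left out, 20 of the 24 other summits among ranks 1 to 25 held it (83.3%), and 12 of those 24 held it with 0 or 1 difference. The share was 13.1% of 275 summits at ranks 26 to 300, 0.706% of 1700 at ranks 301 to 2000 and 0.969% of 6091 below that. For windows of the same length it was 0.607% of 21909 regions of the pooled list that missed the IDR list, and 1.02% of 19252 protein-coding start sites. An exact copy was found at 20 of the 8091 IDR summits, and 17 of those were among the strongest 300. Ranks come from the same pooled signal throughout, so these shares are a description of 1 list. A match shows only that the letters are present.

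**Figure D1:**
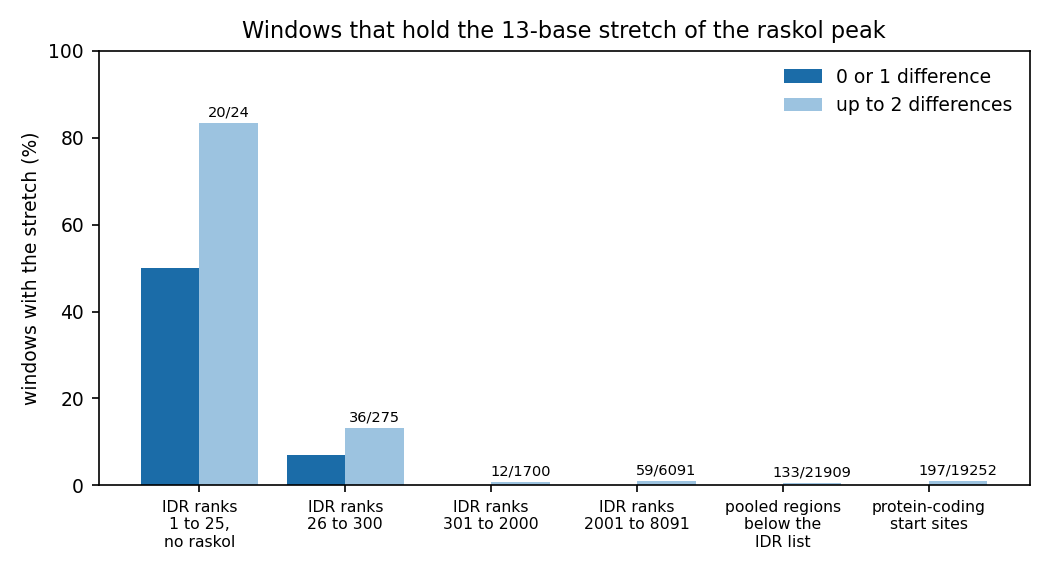
Share of 201-bp windows (%) that hold the 13-base stretch of the raskol peak with 0 or 1 difference (dark bars) or up to 2 differences (light bars), by rank of the summit in the IDR list, for pooled regions that missed that list and for protein-coding start sites. The raskol summit itself is left out of ranks 1 to 25. The count above each pair is the number of windows with up to 2 differences over all windows. The bar for ranks 1 to 25 reaches 83.3% and those past rank 300 stay near 1%.

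Of the 28 other summits of these genes, 1 held the stretch with up to 2 differences, an intronic Egfr summit of rank 5494. Over all IDR summits the share was 1.58%. Stretches with up to 2 differences were also counted over the whole genes with 500 bp on each side. In 42864 bp raskol held 3, in 38558 bp Egfr held 3 and in 17193 bp RasGAP1 held 1. The other 6 genes, with spans of 3507 to 55466 bp, held 0. Of these stretches, 2 at raskol, 1 at Egfr and 0 at RasGAP1 lay within 100 bp of a summit. No share over all genes was taken for these counts. The only exact copy in the 9 genes was the one at the raskol peak. At RasGAP1, whose peak is the strongest among the members after raskol and Egfr, the sequence around the summit holds no copy. It is printed on the gene's strand (dm6, chr3L:9848866-9849076, minus strand), with the 5-base core CACTG of the stretch in capitals. It occurs once, toward the end, outside the 201 bp used for the counts, so RasGAP1 is not among the summits counted with a core.
RasGAP1 peak: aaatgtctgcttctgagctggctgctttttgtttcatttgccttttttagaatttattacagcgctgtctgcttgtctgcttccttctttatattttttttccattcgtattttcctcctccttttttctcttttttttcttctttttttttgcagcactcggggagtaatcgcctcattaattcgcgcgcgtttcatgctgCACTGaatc
The same core is in capitals in an intronic raskol peak of rank 2912 (dm6, chrX:17742970-17743120, plus strand), shown because it has the core without the rest of the stretch.
raskol intronic peak: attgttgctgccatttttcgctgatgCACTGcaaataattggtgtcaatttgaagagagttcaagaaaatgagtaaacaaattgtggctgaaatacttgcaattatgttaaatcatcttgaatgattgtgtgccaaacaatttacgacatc
The Dsor1 peak is shown as the weakest of the strongest peaks per gene (dm6, chrX:9248185-9248335, plus strand). It holds no core and no copy of the stretch, so all its letters are in lower case.
Dsor1 peak: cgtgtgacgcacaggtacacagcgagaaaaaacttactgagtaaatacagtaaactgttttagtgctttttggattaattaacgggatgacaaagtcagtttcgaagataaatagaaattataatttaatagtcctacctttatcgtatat

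The core CACTG was sought on either strand. It was held by 12 of the 29 windows of 201 bp, against 43.4% of all 8091 IDR windows and 36.9% of protein-coding start sites. Within 50 bp of the summits it was in 4 of 29, against 20.2% of all IDR summits at that distance. GAGAG or its complement CTCTC, letters of the GAGA factor motif, was in 44.8% of the 29 windows and in 27.9% of all IDR windows. An intronic drk summit of rank 1730 had a core on each side, at -73 bp on the plus strand and at 65 bp on the minus strand. The median GC content was 40.3% at the members' summits and 37.3% over all IDR summits.

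Among the GTPase-activating proteins, raskol (FBgn0261570; X, 17710144 to 17752007, plus strand) carried the strongest peak of the 9 genes. Its peak (X, 17737818 to 17738852) had a signal of 23405 in the IDR list. The matched regions of replicates 1, 2 and 3 had signals of 12141, 5080 and 6174. Signal is the authors' value over control for each peak and was treated as not scaled between lists, so ranks were compared instead. The peak ranked 2 in every replicate list, at 4 to 12 bp from the IDR summit. The values just outside were those of the peak nearest to CG42806, which ranked 1 with a signal of 24704, and of the MEP-1 promoter, which ranked 3 with 19677. Relative to the highest region of its list, the raskol signal reached 95.7%, 96.8% and 91.0% in replicates 1, 2 and 3. The raskol peak was also wide, at 1035 bp. Of the 8091 IDR regions, 30 were at least this wide, the raskol peak included, and the median width was 470 bp. The peaks of rank 1 and 3 were nearly as wide, at 986 and 975 bp, so this width was not particular to raskol.

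The 3 annotated starts of raskol were unequal. The last start (17738413), from which the 2 transcripts raskol-RA and raskol-RI begin, had the peak of rank 2. The first start (17710144), used by 5 transcripts, had a summit of signal 199.6 and rank 6058 at an offset of 31 bp, in the 5' UTR. Near that start the strongest regions of replicates 1, 2 and 3 ranked 7164, 6072 and 5304. The middle start (17723203), used by raskol-RD and raskol-RF, had no IDR summit within 500 bp. Its strongest pooled region had a signal of 147.5 and rank 8362, just below the IDR list, and the replicates had ranks of 7477, 19205 and 5540. Reads over alternative starts do not show which transcripts were made.

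The summit of rank 2 also lay in intron 3 of the longer transcript raskol-RB. The remaining 6 raskol summits were intronic, over 500 bp from a start and far weaker. They had signals from 179.1 to 500.2 and ranks from 2069 to 6804. The strongest of them (X, 17726028 to 17726335), 2949 bp downstream of the middle start, had signals of 351.1, 89.2 and 77.7 in replicates 1, 2 and 3. The main peak was 34.6, 56.98 and 79.4 times as high as this next summit in the same replicates, so the ratio varied while the rank of 2 did not. The summit at 17743045 (signal 376.0, rank 2912) had 228.6 in replicate 1 and 95.8 in replicate 3, and replicate 2 had no summit within 100 bp. The summits at 17732298 and 17745952 were matched in every replicate, the first at ranks 4923, 9296 and 5569 and the other at ranks 5650, 4901 and 5896. Which of these 2 was the stronger thus differed in replicate 2 from replicates 1 and 3. Of the 8 raskol summits, 5 were matched within 100 bp in all 3 replicate lists and 3 in 2 of them. Summits at 17726152 and 17726361 were 209 bp apart, and those at 17743045 and 17743244 were 199 bp apart. Each pair was counted as 2 summits because every summit in the authors' list was counted. The listed regions of each pair overlap, so they are not distinct stretches of the gene.

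**Figure D2:**
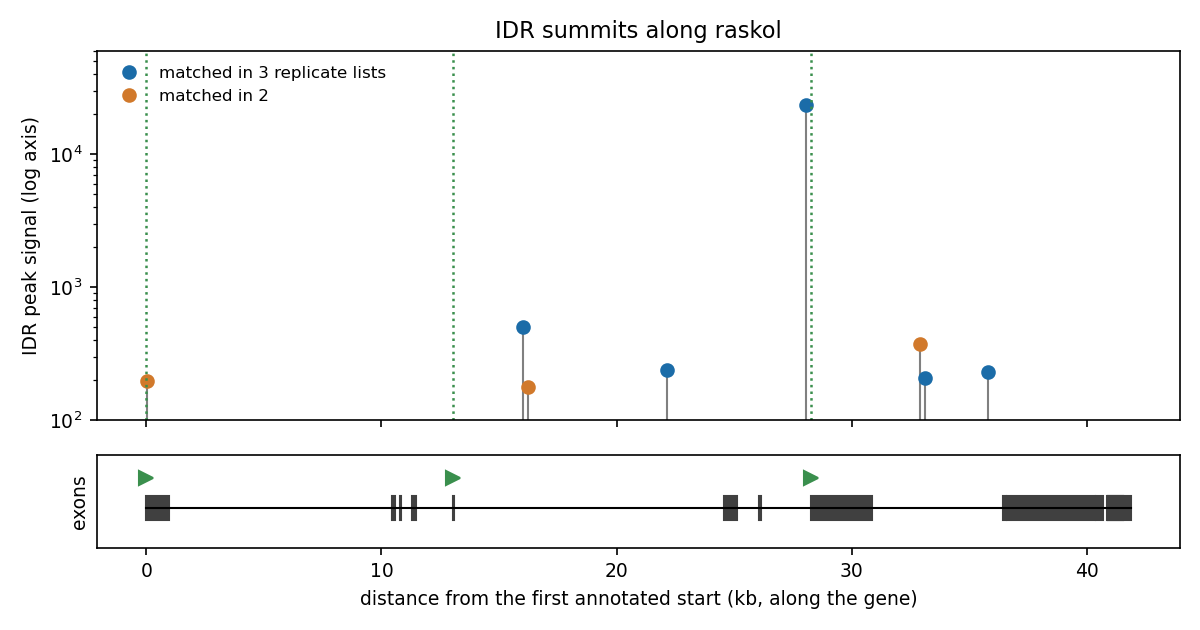
IDR summits along raskol, with distance in kb from the first annotated start on the x axis and the authors' IDR signal on a log y axis. Colours give the number of replicate lists with a summit within 100 bp, dotted lines and triangles mark the 3 annotated starts, and boxes mark the exons of any transcript. The summit of signal 23405 stands just before the last start, and the other 7 lie between 179.1 and 500.2.

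The promoter peaks with ranks most like raskol's in the 3 replicate lists were those of MEP-1, c12.2 and tun. Likeness was the sum of the absolute differences in log2 rank over the 3 replicates, which was 1.75 for MEP-1, 3.32 for c12.2 and 3.91 for tun. MEP-1 ranked 3 in every replicate. With 3 replicates and ranks this close to the top, the measure mainly restates how high they ranked.

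RasGAP1 (FBgn0004390; 3L, 9839093 to 9855285, minus strand), a GTPase-activating protein also named Gap1, had 1 summit. It lay in the first intron (3L, 9848782 to 9849189), 6314 bp downstream of the only annotated start, with a signal of 1004 and rank 732. The matched regions had signals of 591.6, 192.9 and 209.9 and ranks of 610, 1085 and 911 in replicates 1, 2 and 3. No IDR summit lay near the RasGAP1 start, where the strongest regions ranked 9232, 16754 and 12271 in the 3 replicates. Nf1 (FBgn0015269; 3R, 25983013 to 25995737, plus strand), the fly neurofibromin, had no region of any kind. None of the pooled list or the 3 replicate lists had a summit within 500 bp of the Nf1 start or in its 12.7 kb. The nearest IDR summit lay 840 bp past the end of Nf1 (3R, 25996405 to 25996836, rank 414, signal 1336), at 419 bp from the start of CG43116.

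The receptor Egfr (FBgn0003731) had the most summits of the 9 genes. It held 17 in 37.6 kb (2R, 21522420 to 21559977, plus strand), or 0.453 per kb. Among 663 protein-coding genes of at least 30 kb, 2 had as many summits per kb, Egfr itself and tara, and the median gene of that length had 2 summits. In 15 cases the Egfr summit was in an intron and over 500 bp from the Egfr starts. Of the others, 1 was in an intron at -146 bp from the second start, and 1 was in the 5' UTR at 96 bp from the first. All 16 intronic summits lay in the first intron of Egfr-RA, the transcript that begins at the first start. The 2 summits near the starts were weak, with signals of 187.6 and 180.0 and ranks of 6460 and 6766. The one at the first start had 130.0 in replicate 1 and 37.8 in replicate 2 and no match in replicate 3. The one at the second start had 101.3, 41.0 and 64.0 in replicates 1, 2 and 3.

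The highest Egfr peak (21524017 to 21524549) was 1831 bp downstream of the first start. Its signal was 1968 and its rank 182. The matched regions had signals of 1121, 418.1 and 437.2 and ranked 164, 236 and 200 in replicates 1, 2 and 3. Next came summits at 21542595 with a signal of 994.8 and rank 746, and at 21551508 with 867.3 and rank 948. The second of the 3 had signals of 525.9, 214.3 and 245.0 in replicates 1, 2 and 3, and the third had 454.3, 197.7 and 215.6. All 3 were matched in every replicate list, within 13 bp, and stayed among the strongest 1042 regions of each. The summit at 21543438 (signal 684.0, rank 1361) had 401.9 in replicate 1 and 141.3 in replicate 2, and replicate 3 had no summit within 100 bp. The other 13 summits had signals from 154.3 to 537.2. Of the 17, 13 were matched in 3 replicate lists, 3 in 2 and 1 in a single list. In 3 places 2 summits shared the same region at 199 to 202 bp from each other, so the 17 summits stand for 14 regions. The large intron also holds other genes. The summit at 21531994 (signal 462.4) lay inside lncRNA:CR44725, at 201 bp from its start. The summits at 21528882 and 21534402 were also nearest to that start, at 3313 and 2207 bp. Another 4 summits were nearest to the start of CG30283, at 779 to 2865 bp.

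**Figure D3:**
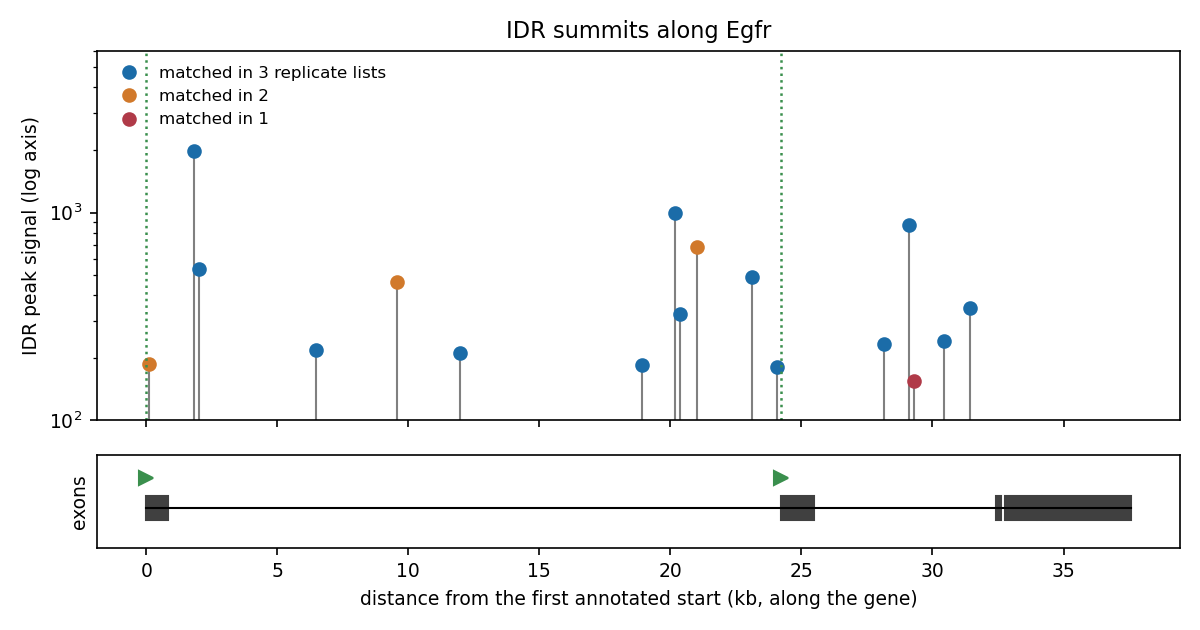
IDR summits along Egfr, with distance in kb from the first annotated start on the x axis and the authors' IDR signal on a log y axis. Colours give the number of replicate lists with a summit within 100 bp, dotted lines and triangles mark the 2 annotated starts, and boxes mark exons. The highest summit (1968) lies 1831 bp after the first start, and the summits next to the 2 starts have signals of 187.6 and 180.0.

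The adaptor drk (FBgn0004638; 2R, 13495222 to 13502841, minus strand), the fly Grb2, had 2 intronic summits. The stronger (2R, 13499614 to 13499872) had a signal of 575.9 and rank 1730, and the matched regions had 325.5, 127.3 and 124.6 in replicates 1, 2 and 3. It lay 2544 bp from the nearer drk start and 872 bp from the start of mars, a gene that overlaps drk. The weaker, with a signal of 156.4 and rank 7887, lay inside mars, at 169 bp from its start, and was matched in replicates 1 and 2. Whether either summit belongs to drk or to mars cannot be told apart from position. At the drk starts themselves only replicate 1 had regions, the stronger with a signal of 193.6 and rank 3162. The exchange factor Sos (FBgn0001965; 2L, 13813816 to 13819824, plus strand) had no region in the pooled list or in any replicate list, and the nearest IDR summit was 8898 bp upstream (rank 6464).

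The GTPase gene Ras85D (FBgn0003205; 3R, 9510561 to 9513067, minus strand) had no IDR summit and no pooled region. Replicate 1 alone had 3 regions there, with signals of 132.1, 89.1 and 42.0, ranks of 5113, 7991 and 16781, and summits within 459 bp of the start. Replicates 2 and 3 had 0. The nearest IDR summit was 20256 bp upstream.

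Of the kinases, Dsor1 (FBgn0010269; X, 9247342 to 9250037, plus strand) had 1 summit and rl (FBgn0003256; 2R, 1071462 to 1125927, plus strand) had 0. The Dsor1 summit (X, 9248025 to 9248494) lay in the first intron of Dsor1-RA, 631 bp downstream of the nearer start. Its signal was 254.7 and its rank 4623, and the matched regions had 150.1, 55.9 and 46.5 in replicates 1, 2 and 3. At the Dsor1 starts the pooled list had a region of rank 8408, which missed the IDR list by 317 ranks. The strongest regions there ranked 6399, 12747 and 16324 in replicates 1, 2 and 3. At rl the pooled list had 1 region, of signal 40.5 and rank 28554, and replicate 2 had 2 regions, while replicates 1 and 3 had 0. The rl gene lies close to the centromere of 2R, its 54.5 kb are 48.6% repeat-masked in the genome sequence, against 7.10 to 20.3% in the other 8 genes, and the nearest IDR summit was 3697566 bp away. Of the 663 protein-coding genes of at least 30 kb, 245 (37.0%) had no summit inside, as rl did. The part of masked sequence in the low count was not tested.

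The order of the genes with a region in every replicate list was the same in each replicate. For each list, the strongest region of a gene was divided by the median of the 8091 strongest regions. On the log2 scale this gave 6.30 ± 0.140 for raskol (SD, n = 3), 2.68 ± 0.117 for Egfr, 1.65 ± 0.217 for RasGAP1, 0.91 ± 0.105 for drk and -0.33 ± 0.254 for Dsor1. No 2 neighbours in this order overlapped across replicates. Their ranges were 6.19 to 6.46, 2.59 to 2.81, 1.47 to 1.89, 0.83 to 1.03 and -0.59 to -0.09. Since raskol was chosen for this height, the order is a description and was not tested. Genes with more regions also have more values from which the strongest is taken. In replicate 1, Egfr had 35 regions, raskol 28, RasGAP1 9, drk 8 and Dsor1 4. Ras85D and rl had a region in 1 replicate each, and Nf1 and Sos in 0, so these genes were left out of the order. The Ras85D value in replicate 1 was -0.27, within the range of Dsor1.

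**Figure D4:**
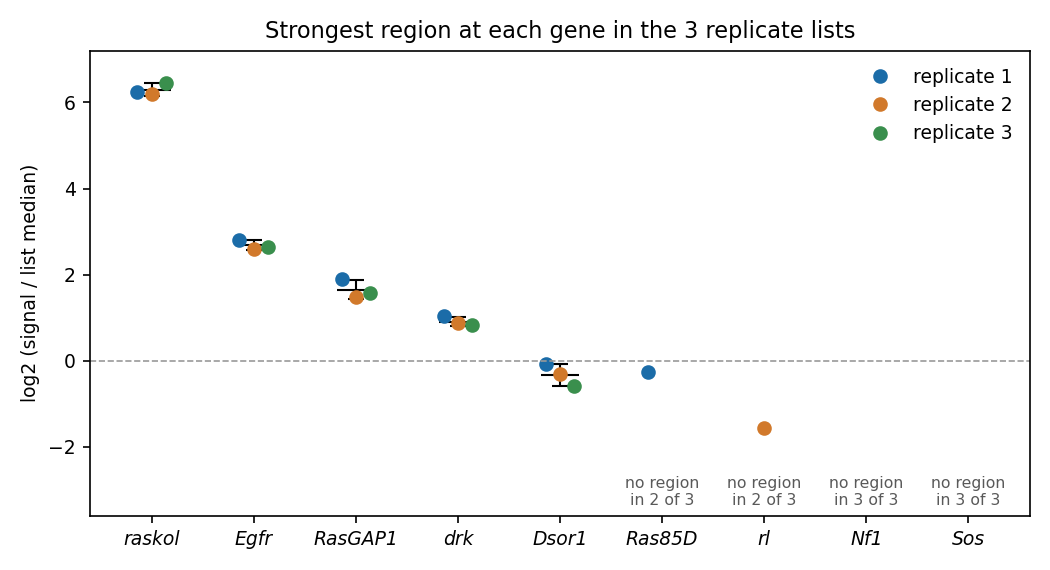
Strongest region within 500 bp of a start or inside each of the 9 genes, as log2 of its signal over the median of the 8091 strongest regions of the same replicate list. Points are the 3 replicates, and bars show the mean and SD where all 3 have a region. The raskol values lie between 6.19 and 6.46, those of Egfr between 2.59 and 2.81, and Nf1 and Sos have no region in any replicate.

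Of the 9 genes, 2 (raskol and Egfr) had an IDR summit within 500 bp of a start, against 18.1% of all protein-coding genes. With summits inside genes included, 5 of the 9 did (raskol, Egfr, RasGAP1, drk and Dsor1), against 23.1% of all. Because raskol was chosen for its peak, its place in both counts was fixed by that choice. Long genes have more room for summits. The median length was 12.7 kb for the 9 genes and 2.17 kb for all protein-coding genes, and 84.5% of all protein-coding genes had 0 summits inside.

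Replicate 1 had more promoter regions at these genes than replicates 2 and 3. Among its 8091 strongest regions, 5 of the 9 genes had a promoter summit (raskol, Egfr, drk, Ras85D and Dsor1), while 2 did in replicate 2 and 2 in replicate 3. Over all protein-coding genes the shares were 20.7%, 17.7% and 16.5% in replicates 1, 2 and 3. Those shares are for promoter summits alone. With summits inside genes, 6, 5 and 5 of the 9 genes had a region, and no share of all genes was taken for that count. Of the 29 IDR summits, 21 were matched in all 3 full replicate lists (82.4% of all IDR summits were). Over those 21 summits, Spearman's rho of rank was 0.777 between replicates 1 and 2, 0.736 between 1 and 3 and 0.753 between 2 and 3. These are correlations across summits, which are not independent replicates, in lists called against the same control.

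**Figure D5:**
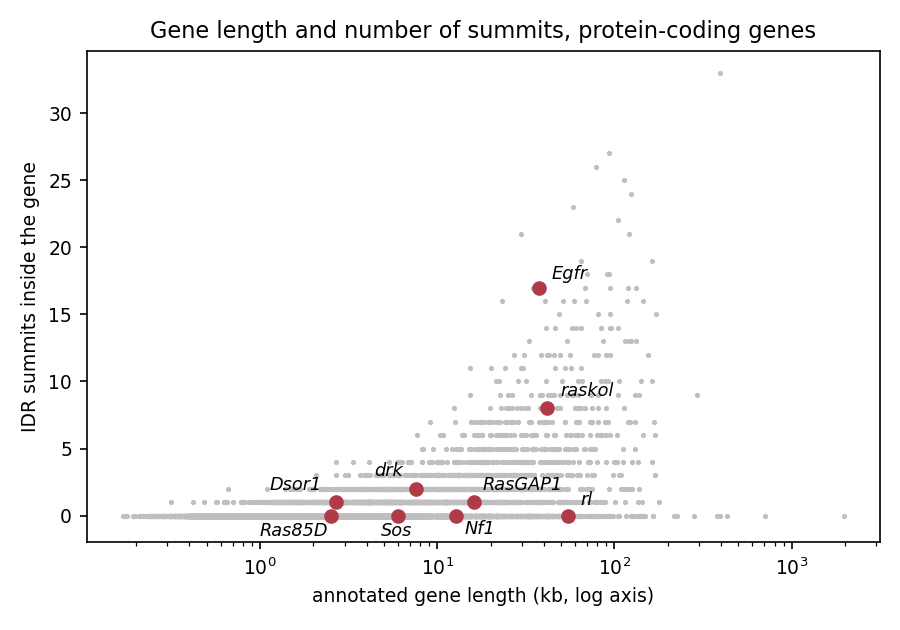
Number of IDR summits inside each protein-coding gene against its annotated length in kb on a log axis, with the 9 genes in red and all others in grey. Egfr, with 17 summits in 37.6 kb, stands near the top for its length, raskol has 8 in 41.9 kb, and rl has 0 in 54.5 kb.

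The 57 other genes of Ras and MAP kinase signalling were counted in the same way. Of these, 24 had a promoter summit (42.1%, against 18.1% of all protein-coding genes), and 39 had a summit at a start or inside the gene (68.4%, against 23.1%). The 8091 strongest regions of replicates 1, 2 and 3 gave 23, 27 and 26 of the 57. These genes are long, with a median of 9.42 kb, so both shares were also taken within classes of length. Of the 21 listed genes of 15 kb and over, 42.9% had a promoter summit, against 38.9% of all genes of that length. Of the 25 between 5 and 15 kb, 12 did, against 29.8%, and of the 11 under 5 kb, 3 did, against 12.97%. With summits inside genes included, the shares were 85.7% of the listed genes of 15 kb and over against 64.5% of all, 17 of 25 against 41.3% between 5 and 15 kb, and 4 of 11 against 14.03% under 5 kb. No test was made of these shares, and the difference between the list and the 9 genes was not tested.

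By role, all 6 nuclear effectors (pnt, aop, cic, edl, Ets21C and gro) had a promoter summit, as did 4 of 5 adaptors and related proteins and 4 of 8 inhibitors and phosphatases. The counts were 4 of 18 for ligands and their processing, 2 of 6 for receptors, 1 of 4 for Ras family GTPases, 1 of 2 for GTPase-activating proteins and 2 of 8 for the kinase cascade. The groups are small and differ in length. Of the nuclear effectors, 3 were between 5 and 15 kb and 3 were longer, lengths at which 29.8% and 38.9% of all protein-coding genes had a promoter summit. The aop promoter summit ranked 3641, 8886 and 22582 in replicates 1, 2 and 3, so it lay among the strongest 8091 in replicate 1 alone. The highest promoter signal was at Pvr, the receptor for PDGF- and VEGF-like ligands, with 2693 and rank 110 (2L, 8239741 to 8240397). It ranked 129, 124 and 85 in replicates 1, 2 and 3. RapGAP1, which acts on the related GTPase Rap1, followed with 2017 and rank 174. Next came spi, the main Egfr ligand, with 1200, Shc, an adaptor, with 1158, and csw, the SHP2-type phosphatase, with 1135. The kinase Raf, which acts between Ras85D and Dsor1, had no promoter summit but 15 summits inside its 48.4 kb, the strongest of rank 325.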

How the data were processed

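The authors' deposited dm6 lists were used: 1 of 30000 regions for each of the 3 replicates, 1 from the pooled replicates and the IDR list. Per the deposited text descriptions, each replicate was called against 1 control alignment. No source used here names an aligner or a peak caller, and read depth is unknown. The deposited signal column, by its place in the narrowPeak format, holds the authors' value over control for each peak, and it was ranked within each list. The dm3 lists were not used.

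Genes and starts came from Ensembl release 115, and sequence from RefSeq's Release 6 genome. All 9 genes had the same coordinates in RefSeq. Summits were matched between lists within 100 bp. Calls and matching were checked on simulated summits. The members and the list of 57 other pathway genes were chosen with earlier results of these data known. The text names the 9 genes, the gene with the start nearest to a named summit, ranks 1 and 3, the 3 promoter peaks of most like rank, and of the 57 genes the 5 of highest promoter signal (33 had no promoter summit and are not listed). The 13-base stretch, Raf, aop, tara, Atox1 and the full list of nuclear effectors were picked with their values in view. The software was pandas 2.3.3 with numpy 2.4.6 and scipy 1.17.1 in Python 3.11.15, and figures were drawn with matplotlib 3.10.9. Other windows, match distances and lists, and each replicate left out, were tried as alternatives.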

Additional observations from a re-analysis of the deposited data

How the results depend on the processing

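Of 43 alternatives to 7 results, 33 left the value within 1.5 times. The cause was not tested for the others, except that wider windows and longer lists can only add summits and that stricter ones can only remove them. The count of the 9 genes with a promoter summit was 4 within 1000 bp, 5 in the whole pooled list and 1 in the stronger part of the IDR list, and 2 without any 1 replicate. Of the 57 other pathway genes, 15 had a promoter summit within 250 bp and 41 in the pooled list, and 23 to 24 without 1 replicate. The share of all protein-coding genes was taken only for 500 bp and the IDR list (18.1%). Counts of the 9 or the 57 genes at other settings thus cannot be compared with all genes. Matches in all 3 replicates were 16 at 50 bp and 27 at 250 bp, and 22 to 26 of the 29 summits had a match in both of the other lists once any single replicate was dropped. The core was at 4 of the 29 summits within 50 bp (20.2% of all IDR summits) and at 19 within 200 bp (66.7% of all). The stretch of the raskol peak was an alternative set chosen after seeing the data. It was at 2 of the 29 summits with up to 2 differences, against 1.58% of all IDR summits. With up to 1 difference it was at 1 (0.507% of all), and with up to 3 at 5 (6.27% of all). Each of these counts includes the raskol summit, whose match was fixed because the stretch was taken from it. That summit was the only match with up to 1 difference, and 1 of the 28 other summits matched with up to 2. These counts therefore do not show that the stretch was more common at these genes. Within 50 bp the stretch was at 1, the Egfr summit of rank 5494, because the raskol copies lie at -77 and -61 bp. No share of all IDR summits was taken for the stretch at that distance. Without 1 replicate, 5 genes still had a summit and the raskol rank was 2. Peaks were not called again, so the dropped replicate still entered the IDR signals and ranks. The raskol peak ranked 2 in every replicate list, so dropping 1 list could not move it. Settings that drop 1 replicate thus cannot show that a result holds without its reads. The unknown depth limits what the absence of a region at Nf1 and Sos can show.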
